A study of Mus musculus with 9 samples.

Results

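The genes described here are 10 members of the BCL2 family in B16F10 mouse melanoma cells: the survival genes Bcl2, Bcl2l1, Bcl2l2 and Mcl1, the effector genes Bak1 and Bok, and the BH3-only genes Bcl2l11, Bid, Bad and Bmf. They were taken by name as family members that are not direct targets of p53, and make up 10 of the 51649 gene symbols in the tables. Each was found under 1 gene identifier, and all 10 passed the filter on low counts. B16F10 is a pigmented line from a mouse melanoma, and here 3 forms of it were sequenced: a line overexpressing Sirpa, a line with Sirpa knocked down and a non-target control line, with 3 libraries each, 9 in all. All were grown in DMEM with serum and antibiotics, and no further treatment is given. Sirpa encodes signal regulatory protein alpha, a surface receptor that binds CD47, and the comparisons ask what less or more of it does to the transcriptome of the tumour cells. Each condition is 1 line. The labels do not say whether a line is a clone or a pool, how it was made, or whether the control carries the same vector as the others. The libraries of a line are called biological repeats. Any p-value here rests on how these repeats vary, since no condition has a second, independently made line.

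BCL2 family proteins decide at the outer mitochondrial membrane whether a stressed cell survives. The effectors BAK and BAX open pores that release cytochrome c, the survival proteins hold them back, and the BH3-only proteins respond to different kinds of stress, bind the survival proteins and, in the case of BIM and BID, also switch the effectors on directly. Melanoma cells are known for a strong dependence on MCL1, and the BH3-only genes BIM and BMF are known as targets of MAPK pathway control in this tumour type.

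The libraries held 16.4 to 22.38 estimated counts in units of 1000000. Levels are given in CPM, counts per 1000000 on library sizes scaled by the TMM method, for 1 gene between libraries, and in TPM, which also divides by transcript length, wherever genes are compared with each other. Sirpa averaged 902 ± 10.1 CPM in the overexpression line, 115 ± 2.99 CPM in the knockdown line and 295 ± 7.40 CPM in the control line (SD, n = 3 each), so the libraries followed their labels. The 7 melanocyte markers were all tested and summed to 18400 to 18900 CPM in overexpression, 16500 to 17100 CPM in knockdown and 16900 to 17100 CPM in control libraries. Of 6 leukocyte markers 4, among them Ptprc, Cd3e and Adgre1, were at 0 in all libraries, and the 6 summed to 0.0573 to 0.177 CPM in overexpression, 0 to 0.0902 CPM in knockdown and 0 to 0.0606 CPM in control libraries. Of 9 fibroblast, endothelial and epithelial markers 5 (Cdh5, Kdr, Epcam, Krt5 and Krt8) were at 0, and the 9 summed to 2.92 to 3.47 CPM in overexpression, 2.44 to 5.41 CPM in knockdown and 2.97 to 4.84 CPM in control libraries. In bulk RNA, fewer cells making a transcript and less of it per cell cannot be told apart.

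On the TPM scale the 10 members were led by 1 survival gene and 1 effector. The effector Bax, which is not a member, stood above both, at 368 TPM in overexpression, 406 TPM in knockdown and 322 TPM in control libraries on average. Mcl1, whose protein is short-lived and must be made continuously, averaged 116 ± 2.77 TPM in the overexpression line, 105 ± 3.72 TPM in the knockdown line and 102 ± 2.66 TPM in the control line (SD, n = 3 each, as in all averages below). Bak1, which encodes the pore-forming effector resident on mitochondria, averaged 89.6 ± 5.90 TPM in overexpression, 104 ± 7.95 TPM in knockdown and 98.3 ± 3.32 TPM in control libraries. The ranges of these neighbours in the order overlapped in the knockdown and control lines, while in the overexpression line every Mcl1 value lay above every Bak1 value. Below them in the control line came Bad at 43.6 ± 5.48 TPM and Bcl2l1 at 32.0 ± 4.07 TPM, which did not overlap. Bcl2l2 at 13.8 ± 4.07 TPM and Bid at 13.6 ± 1.49 TPM followed and overlapped. Bcl2l11 at 5.14 ± 1.16 TPM, Bcl2 at 4.79 ± 0.296 TPM and Bmf at 4.47 ± 2.39 TPM overlapped as well, and Bok had the lowest mean at 1.76 ± 1.44 TPM, overlapping Bmf.

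The founding member Bcl2, whose protein sits on mitochondria and the endoplasmic reticulum, had 24.1, 19.5 and 22.1 CPM in overexpression libraries, 31.1, 23.9 and 22.0 CPM in knockdown libraries and 24.4, 22.9 and 23.3 CPM in control libraries. The lines overlapped, and the highest value was that of knockdown replicate 1. Bcl2l1, the gene of BCL-XL, had 46.2, 39.7 and 41.0 CPM in overexpression, 41.8, 40.5 and 39.0 CPM in knockdown and 40.4, 42.7 and 38.8 CPM in control libraries, with all 3 lines overlapping. Bcl2l2, the gene of BCL-W, had 23.3, 19.5 and 19.9 CPM in overexpression, 19.5, 23.5 and 20.0 CPM in knockdown and 21.2, 22.4 and 28.5 CPM in control libraries. Its lines overlapped too, and its highest value was that of control replicate 3. Mcl1 differed from these: it had 267, 253 and 258 CPM in overexpression, 232, 226 and 209 CPM in knockdown and 231, 234 and 243 CPM in control libraries. Every overexpression library lay above every library of the other lines, and the knockdown and control libraries overlapped. Over all genes tested, the libraries did not overlap for 45.8% between knockdown and control, 40.5% between overexpression and control and 35.9% between overexpression and knockdown.

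Of the effectors, Bak1 had 135, 123 and 132 CPM in overexpression, 134, 140 and 129 CPM in knockdown and 132, 131 and 134 CPM in control libraries, which overlapped throughout on this scale. On TPM it had 90.8, 83.3 and 94.9 in overexpression, 97.85, 101.9 and 113 in knockdown and 98.3, 101.6 and 95 in control libraries. There every overexpression library lay below all libraries of the other lines, and knockdown overlapped control. The nearest pair was 94.9 TPM in overexpression and 95 TPM in control. The main Bak1 transcript, Bak1-202, did not share this order. It had 86.8, 79.9 and 86.7 TPM in overexpression, 83.3, 91.75 and 52.0 TPM in knockdown and 71.8, 70.1 and 75.35 TPM in control libraries. On Bak1-202 every overexpression library lay above every control library, and overexpression overlapped knockdown. Bok, a relative of BAK and BAX found mainly on the endoplasmic reticulum, rested on 4 to 32 estimated counts in a library and ranged from 0.243 to 1.84 CPM over the 9 libraries, with all lines overlapping.

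Of the BH3-only genes, Bcl2l11 encodes BIM, which binds every survival protein, and had 14.5, 14.1 and 14.1 CPM in overexpression, 16.2, 17.3 and 20.6 CPM in knockdown and 11.9, 13.3 and 11.9 CPM in control libraries. On this scale no pair of lines overlapped: knockdown lay highest, overexpression between, and control lowest. On TPM knockdown also lay highest, but overexpression (4.97 to 6.64 TPM) overlapped control (4.04 to 6.35 TPM). Bid, whose product is cut by caspase-8 and carries the death receptor signal to mitochondria, had 24.6, 24.4 and 22.1 CPM in overexpression, 25.8, 24.9 and 32.2 CPM in knockdown and 21.2, 14.8 and 19.1 CPM in control libraries. The order of the lines was again knockdown, overexpression and control without overlap, although the gaps at the edges were small: the highest overexpression library had 24.6 CPM against 24.9 CPM in the lowest knockdown library, and the lowest overexpression library had 22.1 CPM against 21.2 CPM in the highest control library. Bad, whose product is held by 14-3-3 proteins when growth factor kinases phosphorylate it, had 20.1, 20.8 and 21.2 CPM in overexpression, 19.0, 19.2 and 18.7 CPM in knockdown and 22.9, 25.4 and 24.4 CPM in control libraries. Here the order was turned round, with control highest and knockdown lowest, and no pair of lines overlapped on CPM. On TPM control also lay above both other lines, but overexpression (33.1 to 39.4 TPM) overlapped knockdown (31.35 to 34.3 TPM). Bmf, whose product is kept on the cytoskeleton by a dynein light chain, had 5.05, 5.36 and 5.33 CPM in overexpression, 4.51, 5.18 and 3.83 CPM in knockdown and 7.54, 9.21 and 7.79 CPM in control libraries. Control libraries lay above all 6 others, and the overexpression and knockdown libraries overlapped.

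**Figure D1:**
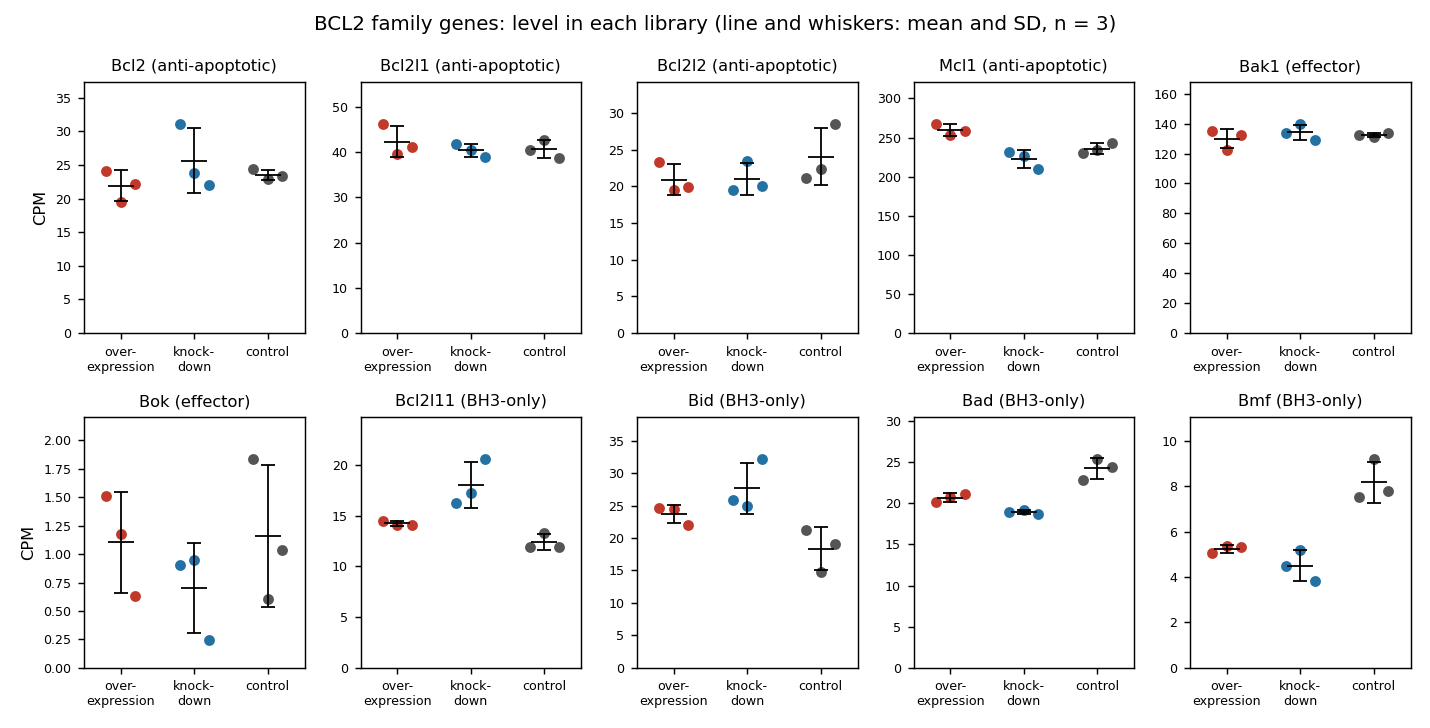
Level of each of the 10 genes in each library, in CPM, with the mean and SD of 3 libraries per line and every axis starting at 0. The survival genes other than Mcl1 and both effectors overlap between lines on this scale, Mcl1 is highest in overexpression libraries (253 to 267 CPM), and in the bottom row Bcl2l11 and Bid are lowest, Bad and Bmf highest, in control libraries.

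The sequence before the start of the BH3-only genes, which moved in opposite directions, is shown here. A link between motifs and direction was not tested. RefSeq's promoter table of build GRCm38.p6 held a promoter for 10 of 10 members, and the 250 bases before each start were searched on both strands for the letters CACGTG and CATGTG (E-boxes, of which MITF and its relatives bind both forms), GTAAACA (a FOXO element) and GGGCGG (a GC box). RefSeq listed 3 promoters each for Bcl2l1 and Bmf, 2 each for Bcl2l11 and Bad, and 1 for each other member. Of several, only that nearest the start of the transcript with the highest mean TPM was used. None of these motifs overlaps another in the stretches below. The stretches are given 5′ to 3′ on the strand of the gene, up to the first base of any annotated exon, with matches in capitals. They are Bcl2l11 at chr2:128125788-128126037 on the plus strand, Bid at chr6:120916854-120917074 on the minus strand and Bmf at chr2:118549688-118549936 on the minus strand. The window of Bad lies in annotated exons of Bad and its neighbour and is not printed.
Bcl2l11: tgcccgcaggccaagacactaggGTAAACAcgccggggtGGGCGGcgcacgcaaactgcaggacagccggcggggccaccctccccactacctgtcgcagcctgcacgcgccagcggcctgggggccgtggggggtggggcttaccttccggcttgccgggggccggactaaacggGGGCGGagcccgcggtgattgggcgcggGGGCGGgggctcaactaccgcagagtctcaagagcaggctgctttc
Bid: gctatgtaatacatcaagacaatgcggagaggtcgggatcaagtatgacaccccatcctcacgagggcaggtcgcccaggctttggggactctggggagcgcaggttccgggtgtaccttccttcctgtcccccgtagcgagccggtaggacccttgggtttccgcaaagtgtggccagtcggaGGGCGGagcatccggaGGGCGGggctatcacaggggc
Bmf: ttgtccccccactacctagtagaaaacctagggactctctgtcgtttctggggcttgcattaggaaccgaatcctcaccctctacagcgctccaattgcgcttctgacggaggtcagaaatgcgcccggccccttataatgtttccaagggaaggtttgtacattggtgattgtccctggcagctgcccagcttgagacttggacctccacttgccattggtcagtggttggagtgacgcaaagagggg
The Bcl2l11 window held 1 FOXO element, 227 bases before the start, and 3 GC boxes. The Bid window held 3 GC boxes, of which 2 lie in the printed stretch, 66 and 50 bases before the start. The Bad and Bmf windows held none of the 4 motifs. Among members not called in knockdown, the Bcl2 window held 7 GC boxes and those of Bcl2l2, Mcl1 and Bok 1 each. The Bcl2l1 and Bak1 windows held none of the 4 motifs. Over 32851 promoters of the same length, GTAAACA was found in 3.17%, GGGCGG in 32.7%, CATGTG in 12.3% and CACGTG in 6.02%. The GC content was 72.0% before Bcl2l11, 63.6% before Bid, 64.8% before Bad and 54.0% before Bmf, against a median of 52.4% over all promoters. For the other members it was 74.8% before Bcl2, 47.6% before Bcl2l1, 66.0% before Bcl2l2, 64.4% before Mcl1, 58.4% before Bak1 and 55.2% before Bok. A match describes letters in a window, and whether a factor bound there was not measured.

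In the knockdown line all 4 BH3-only members differed from control, 2 higher and 2 lower, while no survival or effector member was called. Outside the members, the effector Bax and the BH3-only gene Bbc3 were called higher, as described below. Bid was 1.50-fold and Bcl2l11 1.45-fold higher in knockdown, and Bad at 0.782 and Bmf at 0.552 of the control level were lower. Calls are those of edgeR's quasi-likelihood F test, with p adjusted by Benjamini and Hochberg's method over 13052 genes and a threshold of 0.05. By this rule 4 of the 10 members were called, against 35.4% of all genes (18.0% higher and 17.4% lower). For 4 members the lines did not overlap, that is, every library of 1 line lay beyond every library of the other, against 45.8% of all genes. A count of 4 in 10 is near the background of this comparison. The median log2 fold change was -0.05 over the members and -0.01 over all genes tested, and the median size of change was 0.28 for members and 0.22 for all genes.

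Bid rose by a log2 fold change of 0.59 ± 0.13 (SE; 95% interval 0.31 to 0.86; adjusted p = 0.0019 by edgeR) in knockdown against control. Bcl2l11 rose by 0.54 ± 0.12 (0.28 to 0.79; adjusted p = 0.00227 by edgeR). Bad had a log2 fold change of -0.35 ± 0.09 (-0.55 to -0.16; adjusted p = 0.00576 by edgeR), and Bmf of -0.86 ± 0.19 (-1.27 to -0.45; adjusted p = 0.00238 by edgeR). Each of these directions was shown by 3 of 3 knockdown libraries against all control libraries. Among the survival genes the log2 fold change was 0.13 for Bcl2 (-0.13 to 0.39), -0.01 for Bcl2l1 (-0.17 to 0.16), -0.20 for Bcl2l2 (-0.46 to 0.06) and -0.08 for Mcl1 (-0.18 to 0.01), with 0 of 4 called by edgeR, DESeq2 or limma-voom and 0 of 4 at an unadjusted p under 0.05. The effectors gave 0.02 for Bak1 (-0.08 to 0.13) and -0.71 for Bok (-2.04 to 0.62), also with 0 of 2 called by any of these tools and 0 of 2 at an unadjusted p under 0.05. The interval of Bok is wide, and the gene rested on 40 counts over the knockdown libraries and 61 over the control libraries.

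The 4 calls in the knockdown line held in each of 9 fits that left out 1 library. With the average transcript length of each library as an offset, or on log2 TPM, 2 remained, Bid and Bad. Bcl2l11 then had a log2 fold change of 0.466 (adjusted p = 0.0976, edgeR with the length offset) and 0.505 (adjusted p = 0.0888, limma on log2 TPM). Bmf had -1.149 (adjusted p = 0.101) and -0.873 (adjusted p = 0.172) by the same fits, so for both genes the call was lost while the fold stayed within 1.5 times that of the CPM fit.

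In the overexpression line 3 of the 10 members were called against control. Bid at 1.29-fold and Mcl1 at 1.10-fold were higher and Bmf at 0.641 of the control level was lower. The background of this comparison was 24.3% of genes called (13.2% higher and 11.2% lower). Between these lines 5 members did not overlap, against 40.5% of all genes. The median log2 fold change was -0.04 over the members and -0.001 over all genes tested, with a median size of change of 0.17 and 0.18.

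Mcl1 had a log2 fold change of 0.14 ± 0.05 (0.04 to 0.23; adjusted p = 0.0361 by edgeR) in overexpression against control, Bid of 0.37 ± 0.13 (0.09 to 0.64; adjusted p = 0.0499) and Bmf of -0.64 ± 0.19 (-1.05 to -0.23; adjusted p = 0.0223). Bcl2l11 and Bad did not overlap with control either but were not called, with log2 fold changes of 0.20 (-0.06 to 0.46; adjusted p = 0.262 by edgeR) and -0.23 (-0.42 to -0.04; adjusted p = 0.0782). The other values were -0.10 for Bcl2 (-0.36 to 0.16), 0.06 for Bcl2l1 (-0.10 to 0.22), -0.20 for Bcl2l2 (-0.46 to 0.06), -0.03 for Bak1 (-0.13 to 0.08) and -0.06 for Bok (-1.36 to 1.24). Of the effectors 0 of 2 were called by edgeR, DESeq2 or limma-voom, and 0 of 2 had an unadjusted p under 0.05.

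The 3 calls in the overexpression line depended on single libraries. None was made without control replicate 2 or without overexpression replicate 1, and Bmf alone was called without control replicate 3 or without overexpression replicate 3. Without control replicate 2, the library with the lowest Bid and the highest Bmf level, the log2 fold change was 0.13 for Mcl1 (adjusted p = 0.113 by edgeR), 0.23 for Bid (adjusted p = 0.226) and -0.55 for Bmf (adjusted p = 0.0943). Without overexpression replicate 1 it was 0.11 for Mcl1 (adjusted p = 0.157 by edgeR), 0.34 for Bid (adjusted p = 0.138) and -0.62 for Bmf (adjusted p = 0.0645). Bid was also not called without overexpression replicate 2 (0.34, adjusted p = 0.127 by edgeR), without overexpression replicate 3 (0.41, 0.0645), without control replicate 3 (0.39, 0.0904) or without knockdown replicate 1 (0.36, 0.0586), and Mcl1 not without control replicate 1 (0.12, 0.125), control replicate 3 (0.16, 0.0511) or overexpression replicate 3 (0.14, 0.0882). With the length offset 0 of the 10 were called, and on log2 TPM 1 was, Mcl1. Bak1 had -0.18 with the offset (adjusted p = 0.111 by edgeR) and -0.134 on log2 TPM (adjusted p = 0.275 by limma). With the replicate number as a block, Mcl1 had an adjusted p of 0.0543 by edgeR and 2 of the 10 were called.

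The comparisons with control share the control libraries, so their values are given side by side and not related to each other. The lines were therefore also compared directly, overexpression against knockdown, where 1 of 10 members was called, against 22.2% of all genes (11.1% higher and 11.2% lower). Mcl1 was 1.17-fold higher in overexpression, with a log2 fold change of 0.22 ± 0.05 (0.13 to 0.32; adjusted p = 0.00201 by edgeR) and 3 of 3 overexpression libraries above all knockdown libraries. Of the BH3-only genes 0 of 4 were called by edgeR, DESeq2 or limma-voom, and 1 of 4, Bcl2l11, had an unadjusted p under 0.05. The log2 fold change was -0.34 for Bcl2l11 (-0.59 to -0.08; adjusted p = 0.054 by edgeR), -0.22 for Bid (-0.49 to 0.05), 0.13 for Bad (-0.07 to 0.32) and 0.22 for Bmf (-0.20 to 0.63). Between these lines 4 members did not overlap, against 35.9% of all genes: Mcl1, Bcl2l11, Bid and Bad. Among the rest the values were -0.23 for Bcl2 (-0.49 to 0.03), 0.07 for Bcl2l1 (-0.09 to 0.23), -0.002 for Bcl2l2 (-0.27 to 0.26), -0.05 for Bak1 (-0.15 to 0.06) and 0.65 for Bok (-0.68 to 1.98). Without knockdown replicate 1, Bcl2l11 was called as well (-0.41, adjusted p = 0.0393 by edgeR). With the length offset or on log2 TPM 0 of 10 were called, and Mcl1 had 0.153 (adjusted p = 0.0572 by edgeR) and 0.131 (adjusted p = 0.128 by limma). Bak1 had -0.196 with the offset (adjusted p = 0.0884 by edgeR) and -0.217 on log2 TPM (adjusted p = 0.0922 by limma).

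**Figure D2:**
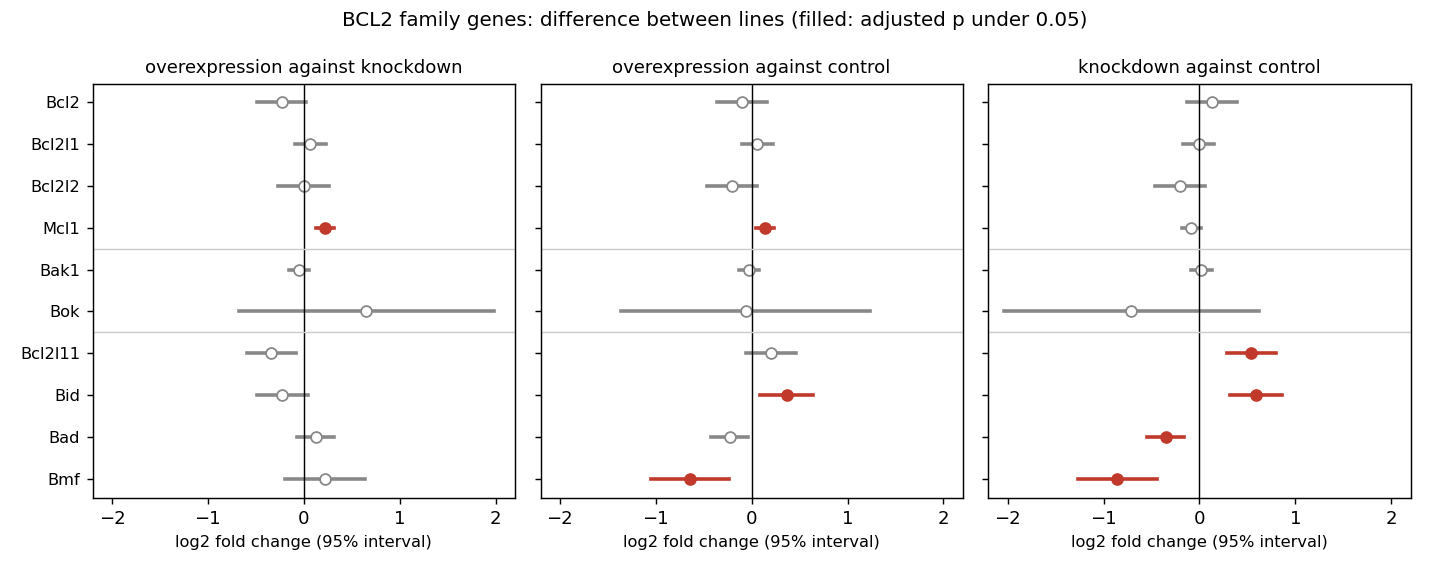
Log2 fold change of each gene with its 95% interval in the 3 comparisons, genes grouped as survival, effector and BH3-only from the top; filled points have an adjusted p under 0.05. The 4 BH3-only genes are filled in knockdown against control (0.59 for Bid to -0.86 for Bmf), Mcl1, Bid and Bmf in overexpression against control, and Mcl1 in overexpression against knockdown.

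The TPM of the members were also summed over roles. The 4 survival genes summed to 163 ± 4.65 TPM in overexpression, 155 ± 4.27 TPM in knockdown and 153 ± 8.61 TPM in control libraries, with the lines overlapping. Mcl1 held 70.7 ± 0.588% of that sum in overexpression, 68.2 ± 3.43% in knockdown and 66.9 ± 2.52% in control libraries. The effectors Bak1 and Bok summed to 90.9 ± 5.67 TPM in overexpression, 106 ± 7.36 TPM in knockdown and 100.1 ± 3.38 TPM in control libraries, of which Bak1 made up 96.7% to 99.7% in every library. This sum lay lower in every overexpression library than in all other libraries, at 84.7 to 95.7 TPM in overexpression, 98.9 to 113.5 TPM in knockdown and 96.2 to 102.3 TPM in control libraries. Bax, an effector that is not a member, is left out of it. Bax had 356.2 to 374.5 TPM in overexpression, 361.5 to 437.3 TPM in knockdown and 319.7 to 323.1 TPM in control libraries. On Bax every overexpression library lay above every control library and overexpression overlapped knockdown. The order of the sum therefore holds for the total of Bak1 and Bok only, and the main transcript Bak1-202 did not share it. The 4 BH3-only members summed to 62.8 ± 3.72 TPM in overexpression, 63.1 ± 2.38 TPM in knockdown and 66.8 ± 7.67 TPM in control libraries, with the lines overlapping. The ratio of the BH3-only to the survival sum was 0.361, 0.387 and 0.405 in overexpression, 0.417, 0.381 and 0.428 in knockdown and 0.448, 0.491 and 0.378 in control libraries, and the lines overlapped. Bbc3, a BH3-only gene that is not a member, is left out of this sum and ratio. It averaged 23.6 ± 2.09 TPM in overexpression, 28.5 ± 2.18 TPM in knockdown and 14.5 ± 3.05 TPM in control libraries. The overlap of the ratio is therefore a statement about the members, not about all BH3-only genes.

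The BH3-only sum was made up differently in the lines. Bad was the largest part and held 55.0%, 58.1% and 58.8% of the TPM sum in overexpression, 54.2%, 53.7% and 47.9% in knockdown and 64.2%, 66.1% and 65.3% in control libraries, with control above both other lines. Bid held 30.9%, 29.9% and 24.4% in overexpression, 30.4%, 31.2% and 37.5% in knockdown and 23.5%, 16.1% and 22.4% in control libraries, with control below both others. Bcl2l11 held 11.1%, 8.13% and 9.60% in overexpression, 11.3%, 11.2% and 12.7% in knockdown and 6.28%, 8.42% and 8.30% in control libraries, so that knockdown lay above both others and overexpression overlapped control. Bmf held 3.06%, 3.88% and 7.23% in overexpression, 4.03%, 3.96% and 1.97% in knockdown and 6.04%, 9.41% and 3.98% in control libraries and overlapped in all comparisons on this scale. These shares are descriptions, with no test.

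**Figure D3:**
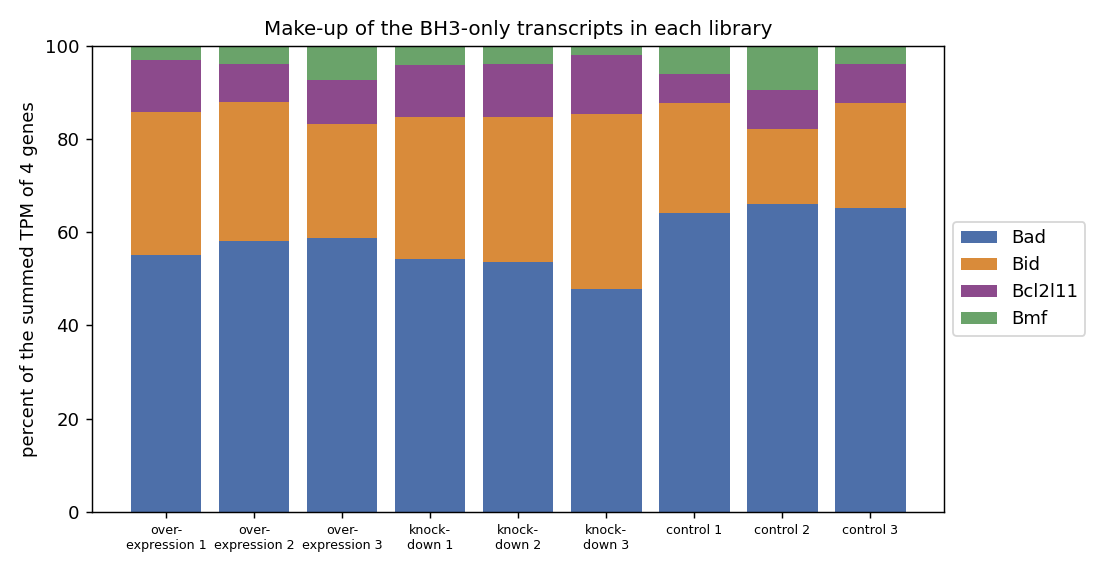
Share of each BH3-only gene in the summed TPM of the 4 genes, 1 bar per library. Bad fills 64.2% to 66.1% of the control bars and 47.9% to 58.8% of the others, and the Bid segment is widest in knockdown replicate 3 (37.5%).

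The tables list 57 transcripts of the 10 genes, of which 27 averaged at least 0.5 TPM. Bid was carried by Bid-201, which had 17.6, 17.8 and 15.5 TPM in overexpression, 19.0, 18.6 and 24.5 TPM in knockdown and 15.1, 10.3 and 13.6 TPM in control libraries, in the same order of lines as the gene total. Bmf-201, the only Bmf transcript above the minimum, had 1.13, 1.60 and 1.61 TPM in overexpression, 1.26, 1.60 and 1.29 TPM in knockdown and 2.24, 2.73 and 2.42 TPM in control libraries. On this transcript control lay above both other lines without overlap, whereas the TPM summed over all Bmf transcripts overlapped. Bcl2l11-205 had 3.64, 3.27 and 3.68 TPM in overexpression, 3.45, 4.77 and 5.35 TPM in knockdown and 3.33, 2.33 and 2.26 TPM in control libraries. Its knockdown libraries lay above control, and its overexpression libraries overlapped both other lines. Bad-202, the main Bad transcript, had 21.2, 22.2 and 22.8 TPM in overexpression, 25.6, 23.2 and 21.7 TPM in knockdown and 21.1, 21.1 and 27.4 TPM in control libraries, and overlapped, so the lower Bad total in knockdown was not seen on it. Another transcript, Bad-209, was at 0 in 6 of 9 libraries and held 16.6% of Bad TPM in overexpression replicate 3, 17.6% in control replicate 1 and 28.1% in control replicate 2.

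Single libraries stood apart in their transcript split. Mcl1-202 had 15.0 TPM in knockdown replicate 3 and 0 in the other 8 libraries, where Mcl1-201 held all of the Mcl1 TPM. In the same library Bak1-204 had 30.8 TPM, 27.2% of Bak1, against at most 4.32% in the others. Bcl2l1-208 held 30.6% of Bcl2l1 in knockdown replicate 2, against 0% to 19.7% in the other libraries. Bok-201 held 32.0% of Bok in knockdown replicate 2 and 50.2% in control replicate 1, and all of it elsewhere. Bak1-201 was at 0 in 5 libraries and had 7.06 TPM in knockdown replicate 3 and 11.2, 10.1 and 5.89 TPM in control libraries. Salmon shares fragments between overlapping transcripts by estimation, so single transcripts are less certain than gene totals. The average effective length of Bmf ran from 1577 to 4393 bases over the 9 libraries, and TPM divides by this length.

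The libraries do not mark strand, so reads of overlapping genes on opposite strands cannot be told apart. Bid shares 628 exon bases with Bcl2l13 on the opposite strand. Bcl2l13 averaged 126 ± 2.85 CPM in overexpression, 129 ± 3.07 CPM in knockdown and 126 ± 1.72 CPM in control libraries, against 23.7, 27.7 and 18.4 CPM for Bid. It had log2 fold changes of 0.04 (adjusted p = 0.519 by edgeR) in knockdown and 0.01 (adjusted p = 0.952) in overexpression against control. The part of Bcl2l13 in the Bid result was not tested. Bad shares 524 exon bases with Gpr137, also on the opposite strand, at 14.1 ± 1.28 CPM in knockdown and 17.5 ± 2.02 CPM in control libraries. Gpr137 had a log2 fold change of -0.31 ± 0.12 in knockdown (adjusted p = 0.0585 by edgeR) and -0.08 ± 0.12 in overexpression (adjusted p = 0.704). Its part in the Bad result was not tested. Of the 31-base words of Bad, 18.4% also occur in another gene, against 16.9% for Bid, 0.408% for Bcl2l11 and 0.113% for Bmf.

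The genes whose pattern over the 9 libraries lay nearest to 3 of the members were found by Euclidean distance between log2 CPM values, each centred on the control mean, among 9747 genes of at least 5 CPM. Nearest to Bid were Eya1, a developmental transcription cofactor (distance 0.326), and Acp6, a mitochondrial lipid phosphatase (0.354). Eya1 averaged 101 CPM in overexpression, 118 CPM in knockdown and 75.4 CPM in control libraries, and Acp6 averaged 23.7, 28.4 and 18.5 CPM in the same lines. Nearest to Bcl2l11 were Braf, the kinase of the MAPK pathway (0.182), at 71.6 CPM in overexpression, 91.1 CPM in knockdown and 64.0 CPM in control libraries, and Tapbp, which loads peptides on MHC class I (0.189), at 51.6, 67.1 and 45.5 CPM. Nearest to Bmf were Mex3d, an RNA-binding protein gene (0.331), at 16.6 CPM in overexpression, 15.7 CPM in knockdown and 26.4 CPM in control libraries, and Fam171a2 (0.348), at 12.1, 9.37 and 18.3 CPM. These neighbours were picked for their likeness, so their changes are descriptions.

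The rest of the death machinery was read from gene lists. The family members that p53 switches on are Bax, the other main effector, Bbc3, the gene of the BH3-only protein PUMA, and Pmaip1, the gene of NOXA. Bbc3 had 15.3, 19.6 and 13.0 CPM in overexpression, 26.5, 24.0 and 20.4 CPM in knockdown and 12.4, 11.6 and 14.4 CPM in control libraries. Knockdown lay above both other lines, which overlapped, and Bbc3 rose in knockdown by a log2 fold change of 0.88 ± 0.15 (adjusted p = 0.000198 by edgeR), against 0.31 ± 0.15 in overexpression (adjusted p = 0.148). Bax averaged 160 ± 5.49 CPM in overexpression, 179 ± 15.4 CPM in knockdown and 146 ± 2.55 CPM in control libraries. Its log2 fold change was 0.29 ± 0.06 in knockdown (adjusted p = 0.000584 by edgeR) and 0.14 ± 0.06 in overexpression (adjusted p = 0.09). In this list 2 of 2 tested were higher in knockdown and 0 of 2 were called in overexpression by edgeR, DESeq2 or limma-voom, with 1 of 2 at an unadjusted p under 0.05. Pmaip1, singled out after its values were seen, was listed at 0 in all 9 libraries, and a count of 0 allows up to 0.134 to 0.183 CPM at these depths, counting error only. Of 12 other BCL2-related genes, 4 were tested. In knockdown against control the log2 fold change was 0.46 ± 0.08 for Bnip3, a mitophagy receptor induced by hypoxia (adjusted p = 0.000376 by edgeR), and -0.66 ± 0.21 for Bcl2l12 (adjusted p = 0.0218). In overexpression it was -0.21 ± 0.06 for the Bnip3 relative Bnip3l (adjusted p = 0.02), the only one called. Of their 31-base words 57.0%, 28.1% and 23.7% occur in other genes, so these counts are uncertain. The Bcl2l12 call was lost without control replicate 1, control replicate 3 or knockdown replicate 3 (adjusted p of 0.0612, 0.107 and 0.0768 by edgeR), and the Bnip3l call without control replicates 2 or 3 or overexpression replicates 1 or 3 (0.0556 to 0.077).

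Of 6 transcription factors known to act on members, 6 were called in knockdown and 5 in overexpression, both against control. In knockdown 3 of 6 were higher and 3 lower than control, with a median log2 fold change of -0.08, and in overexpression 2 were higher and 3 lower, with a median of -0.17. Stat3, which can switch on Mcl1 and Bcl2l1, averaged 82.2 ± 6.29 CPM in overexpression, 93.4 ± 5.23 CPM in knockdown and 147 ± 4.88 CPM in control libraries. It fell in both lines, with log2 fold changes of -0.66 ± 0.06 in knockdown (adjusted p = 4.74e-07 by edgeR) and -0.84 ± 0.06 in overexpression (adjusted p = 6.19e-08). Foxo1, whose family switches on Bcl2l11 and Bbc3, averaged 21.1 ± 2.87 CPM in overexpression, 24.8 ± 2.06 CPM in knockdown and 13.9 ± 1.01 CPM in control libraries, a rise of 0.84 ± 0.12 in knockdown (adjusted p = 3.71e-05 by edgeR) and 0.60 ± 0.12 in overexpression (adjusted p = 0.00146). Foxo3, of the same family as Foxo1, is named after its values were seen. It averaged 68.95 CPM in overexpression, 89.3 CPM in knockdown and 76.7 CPM in control libraries. Its log2 fold change was 0.22 ± 0.07 in knockdown (adjusted p = 0.0197 by edgeR) and -0.15 ± 0.07 in overexpression (adjusted p = 0.117). Myc, which raises the cell's readiness for apoptosis, had log2 fold changes of -0.74 ± 0.10 in knockdown and -0.42 ± 0.10 in overexpression. Mitf, the melanocyte master regulator that can switch on Bcl2, had -0.38 ± 0.04 in knockdown and -0.18 ± 0.04 in overexpression, and Ddit3, the stress factor CHOP, had 0.28 ± 0.07 in knockdown and 0.45 ± 0.07 in overexpression; these 6 values of Myc, Mitf and Ddit3 were called by edgeR.

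Among 14 partners that hold, place or degrade members, 5 were higher and 2 lower in knockdown, and 3 higher and 3 lower in overexpression, both against control. Ywhaq, a 14-3-3 protein of the kind that holds phosphorylated BAD, averaged 445 ± 6.47 CPM in overexpression, 435 ± 19.4 CPM in knockdown and 562 ± 8.21 CPM in control libraries. Its log2 fold change was -0.37 ± 0.04 in knockdown (adjusted p = 1.72e-06 by edgeR) and -0.34 ± 0.04 in overexpression (adjusted p = 8.86e-06), with 32.3% of its words shared with other genes. Other 14-3-3 genes of the list, named after their values were seen, did not all follow it. Ywhah was called higher in knockdown (0.16, adjusted p = 0.0086 by edgeR) and in overexpression (0.125, adjusted p = 0.0443). Ywhab was called lower in overexpression only (-0.14, adjusted p = 0.0246 by edgeR), and Ywhae and Ywhaz were called in neither line. Huwe1 and Usp9x, which add ubiquitin to MCL1 and take it off, rose in knockdown by 0.24 ± 0.05 and 0.27 ± 0.05, against 0.02 and 0.01 in overexpression. Ywhag, another 14-3-3 gene, and Vdac2, which anchors BAK, rose in overexpression by 0.21 ± 0.04 and 0.16 ± 0.04, against -0.01 and 0.06 in knockdown. The Vdac2 call was lost without control replicate 1, control replicate 2 or overexpression replicate 2, at adjusted p values of 0.0531, 0.073 and 0.0727 by edgeR.

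Downstream of the pore, 4 of 7 apoptosome and caspase genes were called in knockdown, 2 higher and 2 lower, with a median log2 fold change of 0.05. Apaf1, the scaffold of the apoptosome, rose by 0.29 ± 0.06. In overexpression 0 of 7 were called by edgeR, DESeq2 or limma-voom, and 4 of 7 had an unadjusted p under 0.05. Of 7 inhibitor of apoptosis genes and their antagonists, edgeR called 3 higher in knockdown and 2 higher in overexpression. DESeq2 called the same 3 in knockdown and 4 in overexpression, adding Birc5 and Birc6, whose log2 fold changes by edgeR were 0.16 and -0.17. Birc5, the gene of survivin, is named after its values were seen. Birc3, the gene of cIAP2, averaged 3.08 ± 0.541 CPM in overexpression, 3.85 ± 0.794 CPM in knockdown and 1.30 ± 0.225 CPM in control libraries, log2 fold changes of 1.57 ± 0.33 in knockdown (adjusted p = 0.00145 by edgeR) and 1.25 ± 0.33 in overexpression (adjusted p = 0.0116, and 0.051 without overexpression replicate 2). Htra2, a mitochondrial protease that counters these inhibitors, had 0.37 ± 0.06 in knockdown and 0.34 ± 0.06 in overexpression, both called by edgeR, with 37.6% of its words shared with other genes. The very large inhibitor Birc6 had 0.24 ± 0.06 in knockdown (adjusted p = 0.00718 by edgeR) and -0.17 ± 0.06 in overexpression (adjusted p = 0.0598). In knockdown its value was 0.064 with the length offset (adjusted p = 0.774 by edgeR), 0.131 on log2 TPM (adjusted p = 0.548 by limma) and 0.185 without control replicate 1 (adjusted p = 0.051 by edgeR).

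On the death receptor side, which reaches the family through Bid, 7 of 8 genes were tested. In knockdown 2 were higher and 1 lower, and in overexpression 2 were higher. Tnfrsf10b, the mouse TRAIL receptor, averaged 31.03 ± 1.82 CPM in overexpression, 34.7 ± 2.98 CPM in knockdown and 21.9 ± 0.858 CPM in control libraries, and rose by 0.66 ± 0.09 in knockdown (adjusted p = 2.31e-05 by edgeR) and 0.50 ± 0.09 in overexpression (adjusted p = 0.000626). The adaptor kinase Ripk1 rose in knockdown by 0.43 ± 0.07, against 0.18 ± 0.07 in overexpression (adjusted p = 0.066 by edgeR), and the adaptor Tradd had -0.44 ± 0.11 in knockdown and -0.06 ± 0.11 in overexpression. Casp8, the protease that cuts BID, rose in overexpression by 0.18 ± 0.06 (adjusted p = 0.0264 by edgeR) against 0.01 in knockdown. The Casp8 call was lost in 5 of 9 fits without 1 library (control replicates 1, 2 and 3, overexpression replicates 2 and 3), at adjusted p values of 0.0532 to 0.114 by edgeR. Of 5 nucleases and cleavage targets, Aifm1 (apoptosis-inducing factor) rose in knockdown by 0.23 ± 0.07 and Parp1, a caspase target in DNA repair, fell, with -0.22 ± 0.04. In overexpression Parp1 was called higher, at 0.14 ± 0.04 (adjusted p = 0.0199 by edgeR). The Aifm1 call was lost without control replicate 2, control replicate 3 or knockdown replicate 1 (adjusted p of 0.0797 to 0.114 by edgeR), and the Parp1 call in overexpression without control replicates 1 or 2 or overexpression replicates 1 or 3 (0.06 to 0.121). Calls of other list genes were also lost on the length-corrected scales. With both the length offset and log2 TPM these were Bcl2l12 and Tradd in knockdown and Bnip3l, Vdac2 and Birc3 in overexpression, at adjusted p values of 0.0706 to 0.52 by edgeR or limma. With the offset alone Casp8 (0.0902 by edgeR) and Parp1 (0.0523) were lost in overexpression, and on log2 TPM alone Foxo1 in overexpression (0.0647 by limma) and Parp1 in knockdown (0.0566). In these 2 comparisons the shares of all genes called were 35.4% in knockdown and 24.3% in overexpression, and the lists are read against them only as counts.

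**Figure D4:**
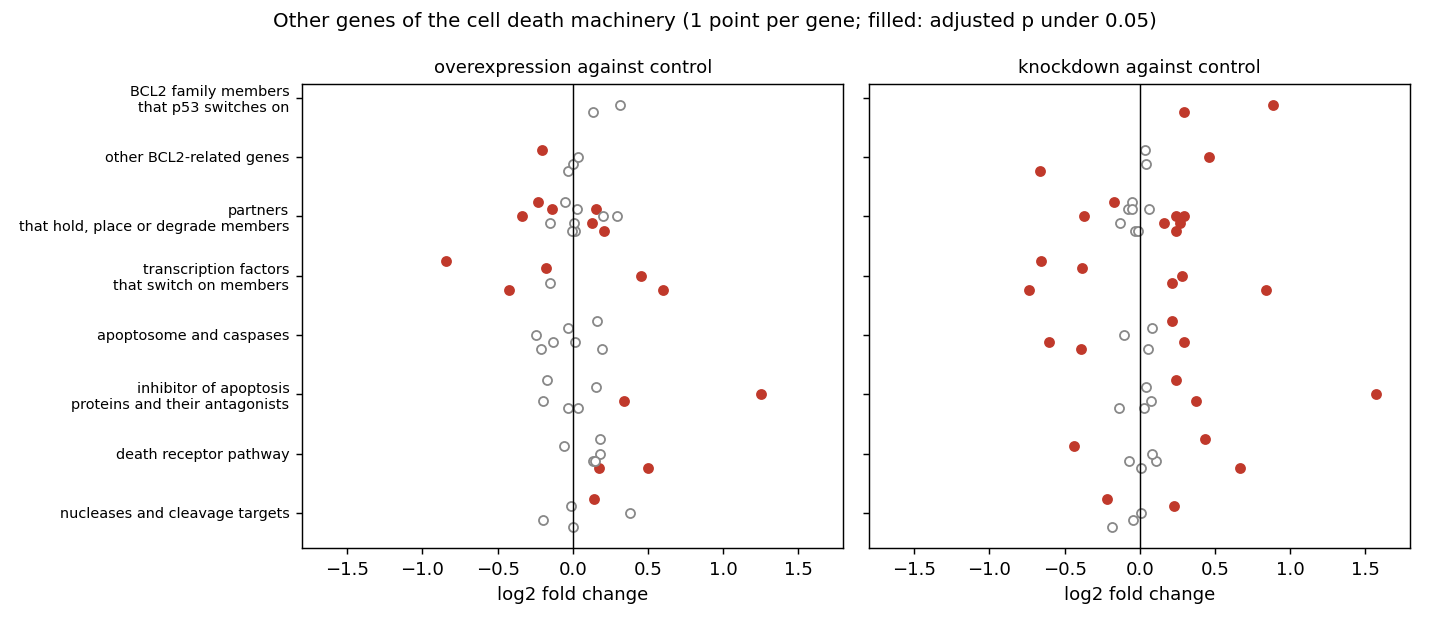
Log2 fold change of each tested gene of 8 lists in overexpression against control (left) and knockdown against control (right), with calls filled; height within a list only keeps points apart. The point farthest right in both panels is Birc3 (1.25 in overexpression, 1.57 in knockdown), and the lowest values are Stat3 in overexpression (-0.84) and Myc in knockdown (-0.74).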

How the data were processed

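RNA of 3 B16F10 lines, 3 libraries each, was made into non-directional libraries and sequenced as paired reads of 150 bases, per the labels' protocols. The tables deposited by the authors list, per the file headers, an estimated count, a TPM and an effective length for each transcript of a library. The submitters' processing notes name mm39 as the build, and DESeq2 1.34.0, MultiQC 1.11 and Salmon 1.4.0 as software. How reads were trimmed, and which annotation release was used, is not given in the sources used here.

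Of 140789 transcripts, 137161 (97.42%) were matched by identifier to symbols of the GENCODE M21 annotation (GRCm38). Transcripts without a match took 0.554% to 0.654% of a library's counts and were dropped. Estimated counts were summed per symbol and rounded to whole numbers, and TPM were summed likewise. edgeR 4.0.16 (R 4.3.3) was fitted to all 9 libraries with TMM, filterByExpr and line as the only term, leaving 13052 genes, with Benjamini-Hochberg adjustment over all of them. Standard errors came from the F statistic. The alternatives were DESeq2 1.42.0, limma 3.58.1 (voom, and log2(TPM + 0.5)), other size factors, other filters (no filter, or 1 CPM in 3 libraries), a length offset, the 2 compared lines alone, a replicate block and leaving out each library. The fit was tested on simulated data first.

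The members, the gene lists and the tests were chosen with earlier results of these data known. Named were all members, up to 3 called genes of a list with the lowest adjusted p in each comparison with control, and for the 3 members with the lowest adjusted p the 2 nearest genes by pattern. Some genes that this rule names are not reported here. Pairs of libraries of a line differed by a chi-square per degree of freedom of 4.76 to 10.92, so none was a copy of another. Coordinates and promoter sequences are from RefSeq on GRCm38.p6, and the mm39 annotation was not used.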

Additional observations from a re-analysis of the deposited data

How the results depend on the processing

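Over 18 alternatives the 4 calls of members in knockdown against control kept their direction, and Bid and Bad were called in all 18. The common coefficient of variation between libraries was 0.0955 in the edgeR fit and 0.164 with the length offset. With that offset the genes called numbered 2798 in knockdown against control (of 4622), 1579 in overexpression against control (of 3175) and 1422 in overexpression against knockdown (of 2902), and the members called 2, 0 and 0, against 4, 3 and 1. On log2 TPM with limma these were 2739, 1467 and 1166 genes and 2, 1 and 0 members. On that scale 1757 genes were higher and 982 lower in knockdown against control, where edgeR had 2347 and 2275, and 1027 were higher and 440 lower in overexpression against control, where edgeR had 1719 and 1456. The largest shift of the median of all genes was 0.052, on log2 TPM. Leaving out 1 library gave 3890 to 4563 genes and 4 members in knockdown against control, 2450 to 3311 genes and 0 to 3 members in overexpression against control, and 2243 to 2876 genes and 1 to 2 members in overexpression against knockdown. With the replicate block, 4450, 2981 and 2722 genes and 4, 2 and 1 members were called. Libraries of the same number deviated together with correlations of -0.174 to 0.16 over 9 pairs, 1 of them over 0.1, so the numbers were not taken to pair the libraries. In overexpression against control, adjusted p over the alternatives ran from 0.015 to 0.226 for Bid, 0.00983 to 0.157 for Mcl1 and 0.0127 to 0.523 for Bmf.

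Directions turned in members that were not called, none of them past the threshold. In knockdown against control Bcl2l1 had 0.001 with voom and 0.02 on log2 TPM, and Mcl1 had 0.048 on log2 TPM. Leaving out 1 library gave Bcl2 values from -0.034 (without knockdown replicate 1) to 0.233, Bcl2l1 from -0.036 to 0.035, with 0.022 without knockdown replicate 3, and Bak1 from -0.005 to 0.051. In overexpression against control Bcl2l1 had -0.069 with the offset and -0.016 on log2 TPM, and Bok had 0.018 with voom. Leaving out 1 library gave Bcl2l1 values from -0.012 to 0.106, Bak1 from -0.057 to 0.013 and Bok from -0.365 to 0.426, with 0.212 without overexpression replicate 3. In overexpression against knockdown Bcl2l1 had -0.028 with the offset and -0.036 on log2 TPM, and Bcl2l2 had 0.015 with voom, 0.086 with the offset and 0.052 on log2 TPM. Leaving out 1 library gave Bcl2l1 values from -0.01 to 0.107 and Bcl2l2 from -0.097 to 0.086. The cause was not tested. Of the named list genes, 549 of 594 values kept their direction and call, 45 lost the call and none turned. Depth limits Bok, with at most 32 counts in a library.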

Other observations

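Several relatives of the family were at or near 0 in these cells. Bcl2a1a, Bcl2a1b and Bcl2a1d, the mouse copies of a survival gene that MITF is known to switch on in human melanoma, were listed at 0 in all 9 libraries. Between 79.6% and 89.1% of the 31-base words of these copies occur in another gene. The BH3-only gene Hrk had 9, 1 and 0 estimated counts in overexpression, 1, 2 and 7 in knockdown and 3, 4 and 5 in control libraries. The BH3-only gene Bik had 0, 0 and 3 counts in overexpression, 0 in all 3 knockdown libraries and 0, 1 and 5 in control libraries. The death receptor gene Fas had 7, 3 and 3 counts in overexpression, 4, 1 and 10 in knockdown and 1, 0 and 8 in control libraries. None of these genes passed the filter on low counts, so none was tested. They were singled out after their values were seen.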
